A study of Mus musculus with 12 samples.

Results

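The comparison concerned the mother's diet in embryos with an intact Cited2 gene: 3 wild-type embryos of mothers on a high-fat diet were set against 3 wild-type embryos of mothers on a control diet. These are 6 of the 12 embryos of a mouse study that also held Cited2 -/- embryos on both diets, 3 on each. All embryos were of the C57BL6/J strain and 8.5 days post coitum. Their mothers and fathers were heterozygous for Cited2, so the mothers of both diet groups carried 1 disrupted copy of the gene. The mothers went onto the high-fat or the control diet at 6 weeks of age, were mated after 8 weeks on it, and stayed on it during pregnancy. Each embryo was freed of its yolk sac and allantois, and its somites were counted to match stages. Its RNA was hybridised to 1 Illumina BeadChip array. Of 45281 probes, 18199 were detected on at least 3 of the 6 wild-type arrays (detection p under 0.01) and were tested. They included 15458 probes with 1 gene symbol, which stood for 10176 genes. A gene is given at its brightest tested probe, and levels are normalized log2 signals.

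At this stage the mouse embryo turns, its heart tube starts to beat, the neural tube closes and somites form one after another. The chorioallantoic placenta is not yet working, and the embryo is fed through the visceral yolk sac. The endoderm of the yolk sac takes up maternal lipoproteins and proteins, and it makes apolipoproteins that carry lipid onwards. Inside cells, sterol regulatory element binding proteins turn on the genes of cholesterol and fatty acid synthesis when sterols are scarce, while the PPAR receptors respond to fatty acids.

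The diet changed no probe at an adjusted p under 0.05 (0 of 18199 probes, 0%, limma, Benjamini-Hochberg adjustment), and the smallest adjusted p was 0.820. Before adjustment, 763 probes had a p under 0.05, which is 4.19% of them, 396 higher and 367 lower in high-fat embryos. Counted over genes, 2.47% had an unadjusted p under 0.05 and were higher in high-fat embryos, and 1.34% were lower. In 4.51% of genes every high-fat embryo was above every control embryo, and in 2.79% every high-fat embryo was below. The median standard error of a log2 difference was 0.185, so that the 95% interval of a typical probe reached 0.405 to either side. With 3 embryos a group, a probe of that typical spread could not reach an unadjusted p under 0.05 at a smaller difference. After adjustment larger differences were not called either, such as −0.97 ± 0.21 (SE) for Zfp507 (adjusted p = 0.820). The estimate exceeded 2-fold for 2 genes that were higher and 8 that were lower in high-fat embryos, none of which passed the test.

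Embryos of the same diet group differed widely. High-fat replicates 1 and 2 and control replicate 1 lay in 1 array set (set A), and high-fat replicate 3 and control replicates 2 and 3 lay in the other (set B). The sets divide the 12 arrays into the first 6 and the last 6 as listed. Their first principal component, 49.9% of the variance, was −36.6, −22.8 and 22.7 in high-fat replicates 1 to 3 and −21.6, 23.3 and 47.9 in control replicates 1 to 3. The spread between beads of a probe also divides them in this way when taken over probes with a signal above 100 on the array, with a coefficient of variation between 22.0% and 24.3% for set A arrays and between 25.8% and 29.4% for set B arrays. The division by beads moved to 11 and 1 or to 5 and 7 arrays when it was taken over probes detected, or above 100, on all 12 arrays. The labels do not say what the sets are. Between 36.6% and 41.0% of probes were detected per array, and wild-type arrays correlated at 0.955 to 0.993. Xist, the RNA of the inactive X chromosome, was detected in high-fat replicate 2 and control replicate 1 and in no other wild-type embryo, so each group held 1 Xist-detecting embryo.

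Within set A the high-fat minus control difference rested on 2 embryos against 1, and within set B on 1 against 2. Over the 10176 genes the differences within the 2 sets had a correlation of −0.043 and the same sign in 55.6% of genes, and the genes share all their arrays. With the set as a covariate the model again called 0 probes (smallest adjusted p = 0.879; 912 with an unadjusted p under 0.05). Array weights changed the number of calls. When limma weighted each of the 12 arrays by its own scatter, 2726 probes passed, 1446 higher and 1280 lower in high-fat embryos, and 0 passed when the weights and the set entered together. Without the set, the weights of the wild-type arrays were 0.592, 8.71 and 0.410 for high-fat replicates 1 to 3. They were 0.495, 2.37 and 0.429 for control replicates 1 to 3, so that 1 embryo of each group held most of its group's weight. With the set, the run of the weights stopped short of convergence. It gave control replicate 1 a weight of 14.9 and high-fat replicate 2 a weight of 1.14. The part of the set in the loss of calls was not tested.

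**Figure D1:**
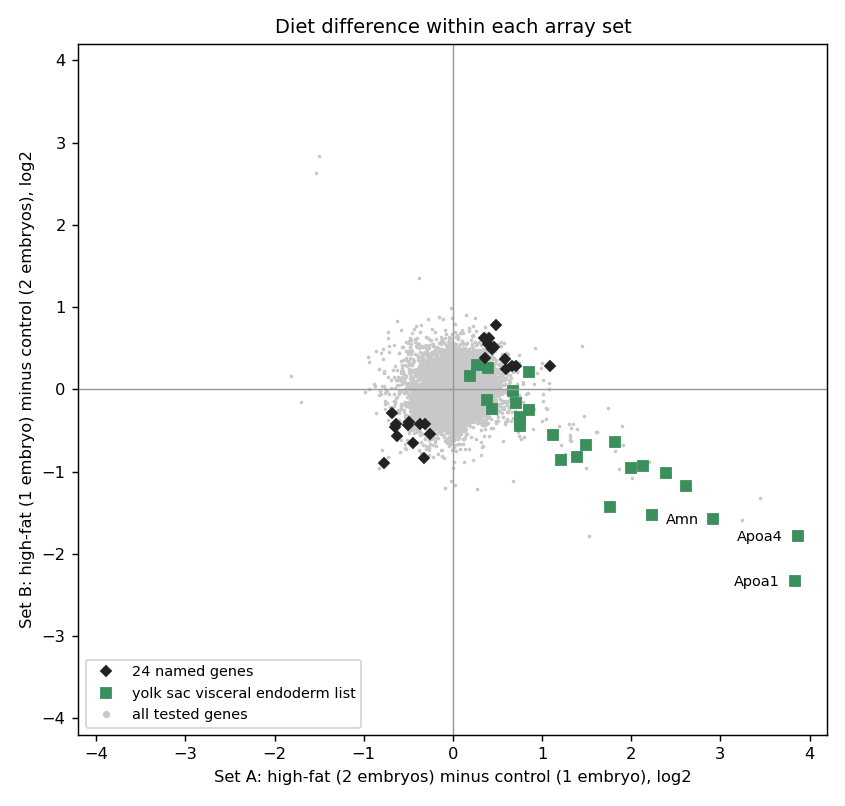
Each point is a gene, with its high-fat minus control difference (log2) in array set A on the horizontal axis and in array set B on the vertical axis. The 24 named genes (black diamonds) were picked as genes whose diet groups do not overlap, which fixes their place in the lower left and upper right, while most genes of the yolk sac visceral endoderm list (green squares) lie to the right of 0 in set A and below 0 in set B. The Apoa4 point uses 1 embryo below detection in each set.

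The genes with the smallest p among those whose groups did not overlap were taken as examples, 12 in each direction. That choice fixes their direction, and none passed the test (adjusted p = 0.820 for each of the 24). Among those higher in high-fat embryos, Snph had the smallest p. Snph encodes syntaphilin, which anchors mitochondria in axons. Its log2 level was 6.49, 6.51 and 6.57 in high-fat embryos and 6.01, 5.71 and 5.86 in control embryos. The high-fat embryos differed by less than 0.1 among themselves, and the log2 difference was 0.66 ± 0.12 (SE; unadjusted p = 0.000159). Igsf21, a synaptic adhesion protein of the immunoglobulin family, had log2 levels of 6.57, 6.41 and 5.80 in high-fat embryos and 5.40, 5.60 and 5.42 in control embryos. High-fat replicate 3 lay nearest the control embryos for Igsf21, and the log2 difference was 0.78 ± 0.19.

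Celsr3, a large cadherin that guides axons, was the brightest of the 12, with log2 levels of 8.96, 8.98 and 8.70 in high-fat embryos and 8.56, 8.39 and 7.77 in control embryos. Its groups were separated by the gap between 8.70 and 8.56, and the log2 difference was 0.64 ± 0.19. Epb41l1, a protein of the neuronal membrane skeleton, had a log2 difference of 0.62 ± 0.19, and its second probe gave 0.42 ± 0.14. Adgrb2, an adhesion receptor of the brain, gave 0.57 ± 0.14, and Lhfpl4, which helps cluster GABA receptors, gave 0.44 ± 0.14. Bak1, which opens the outer mitochondrial membrane in apoptosis, had log2 levels of 6.40, 6.19 and 5.91 in high-fat embryos and 5.63, 5.68 and 5.58 in control embryos. Control embryos were tightly grouped for Bak1 and high-fat embryos spread above them, with a log2 difference of 0.54 ± 0.14. The other 5 were Arhgap4 (0.49), Matk, a tyrosine kinase related to CSK (0.53), Amdhd1, an enzyme of histidine breakdown (0.51), Pramel13 of the PRAME family (0.57) and Prrg3, a membrane protein with a Gla domain (0.52).

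These 12 genes were mostly dim. Their mean log2 levels ran from 5.57 to 8.88 in high-fat embryos and from 5.04 to 8.24 in control embryos, while the dimmest detected probes lay at 5.10 to 5.37 in high-fat embryos and 5.13 to 5.16 in control embryos. All 6 arrays detected 9 of the 12. In the signals before normalization the groups were free of overlap for 4 of the 12 genes. For Snph those signals were 48.5, 53.9 and 100.9 in high-fat embryos and 46.7, 44.1 and 50.4 in control embryos, so that high-fat replicate 1 fell within the control range.

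The genes lower in high-fat embryos were brighter on the whole, with mean log2 levels of 5.13 to 10.84 in high-fat embryos and 5.59 to 11.50 in control embryos, and 10 of the 12 were free of overlap before normalization as well. Zfp507, a zinc finger protein, had the largest difference of them. Its log2 level was 6.59, 6.32 and 6.80 in high-fat embryos and 7.22, 7.37 and 8.02 in control embryos, with a log2 difference of −0.97 ± 0.21 (unadjusted p = 0.000763). A second Zfp507 probe gave −0.91 ± 0.25, and for both probes every high-fat embryo lay below every control embryo. Ola1, an ATPase of the Obg family, had log2 levels of 10.84, 10.72 and 10.97 in high-fat embryos and 11.23, 11.20 and 12.05 in control embryos. Control replicate 3 stood above the other embryos for Ola1, whose log2 difference was −0.65 ± 0.21 at this probe and −0.02 ± 0.19 at its other, dimmer probe. Mrpl18, a protein of the mitochondrial ribosome, had a log2 difference of −0.39 ± 0.12 at the named probe and 0.02 ± 0.38 at its dimmer probe. For Lypla1, a thioesterase that removes fatty acyl groups from proteins, the named probe gave −0.54 ± 0.18 and the dimmer probe 0.21 ± 0.22. The 95% intervals of the 2 probes overlapped for each of these 3 genes, and that of the dimmer Mrpl18 probe ran from −0.82 to 0.85.

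Bmi1, a subunit of Polycomb repressive complex 1, had log2 levels of 5.98, 6.34 and 6.28 in high-fat embryos and 6.65, 6.82 and 6.55 in control embryos. Its log2 difference was −0.47 ± 0.15. Hnrnpf, a splicing factor, gave −0.42 ± 0.13, and Nsl1, a kinetochore protein, gave −0.52 ± 0.17. Rabl3, a small GTPase, had log2 levels of 5.29, 5.30 and 5.65 in high-fat embryos, where 1 of 3 arrays detected it, and 5.92, 5.97 and 6.46 in control embryos, where all did. The remaining lower genes were Arhgap42 (−0.46), Pdik1l, a protein kinase (−0.50), the zinc finger gene Zfp24 (−0.58) and C330018D20Rik (−0.44). Arhgap42 was detected on 1 of 3 high-fat arrays and on all 3 control arrays.

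**Figure D2:**
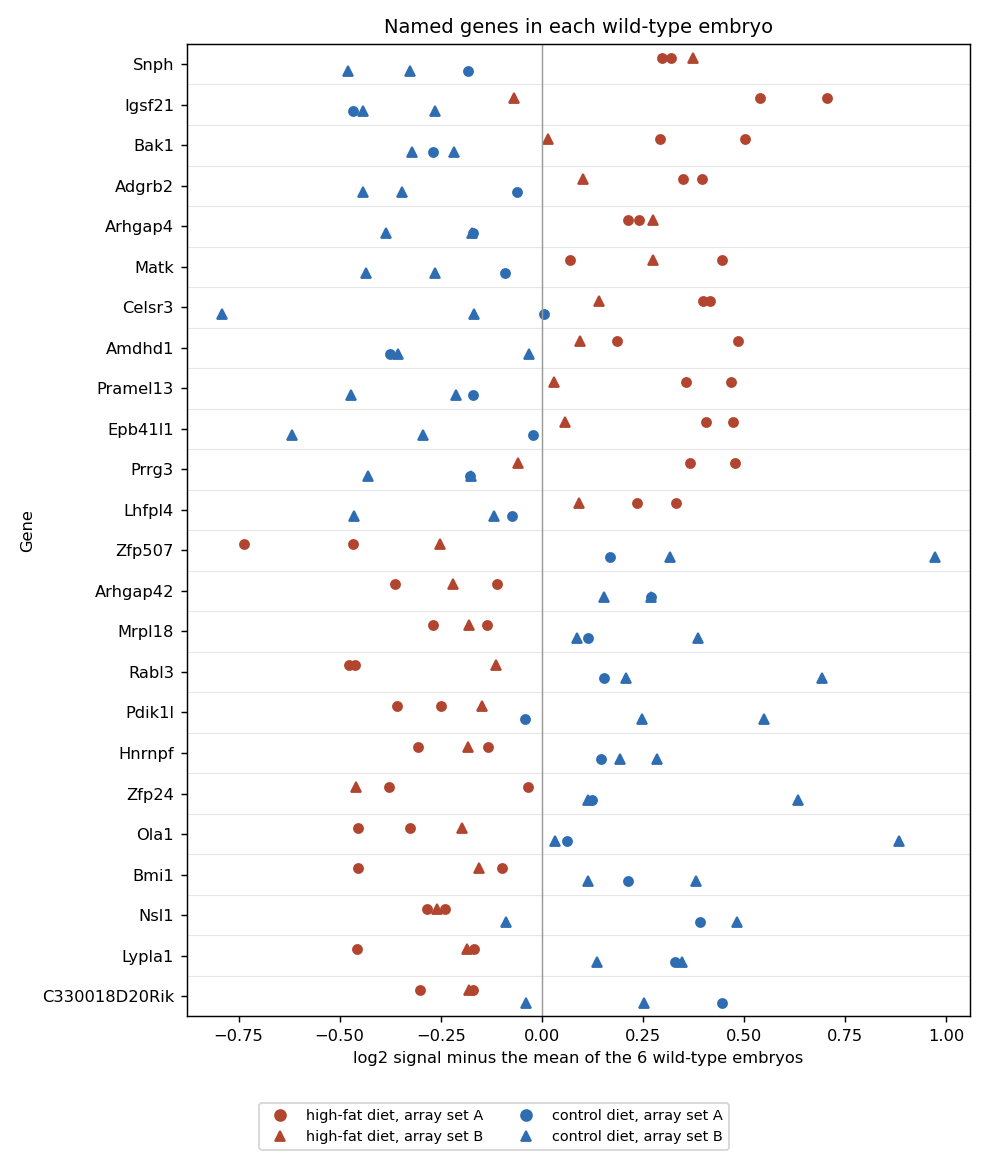
Log2 signal of the 24 named genes in each wild-type embryo, minus the gene's mean over the 6 embryos, with high-fat embryos in red above control embryos in blue and array sets shown as circles (A) and triangles (B). The 12 upper genes have all red points to the right of the blue points and the 12 lower genes to the left, which is how they were picked. High-fat replicate 3, the red triangle, is the high-fat embryo nearest the control embryos for Igsf21 and Prrg3.

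Gene lists were described by counts and medians, and 6 of the 34 medians kept their sign under every alternative processing: those of yolk sac, lipid uptake, trophoblast, cardiac muscle, Hox and unfolded protein response genes. Within array set B alone, 4 of these 6 had the opposite sign, those of yolk sac, lipid uptake, cardiac muscle and unfolded protein response genes. No list held a gene that passed the test. Counts of genes free of overlap in a list stand beside 4.51% of all genes higher and 2.79% lower in high-fat embryos. Of 23 listed cholesterol synthesis genes 17 were tested, and 0 had groups free of overlap, against 4.51% and 2.79% of all genes. The median log2 difference of the list was 0.06, the same as the median of all tested genes (0.06), and with median scaling both became −0.12. Srebf2, which encodes the sterol-sensing transcription factor SREBP-2, had the smallest p of the list. Its log2 level was 8.30, 8.94 and 8.27 in high-fat embryos and 8.24, 8.29 and 7.52 in control embryos. High-fat replicate 3 lay below control replicate 2, and the log2 difference was 0.49 ± 0.24 (unadjusted p = 0.067), with 0.38 in set A and 0.36 in set B. Fdps, the farnesyl diphosphate synthase, gave 0.19 ± 0.20 and Sqle, the squalene epoxidase, 0.01 ± 0.22. Ebp, a sterol isomerase, gave −0.45 ± 0.41.

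The 200 bases before the Srebf2 start are shown because the list turns on the response to sterols and Srebf2 led it. They come from RefSeq (GRCm38.p6, chr15:82147069-82147268, plus strand), and the capitals mark the core of the sterol regulatory element, 162 to 155 bases before the start.
Srebf2: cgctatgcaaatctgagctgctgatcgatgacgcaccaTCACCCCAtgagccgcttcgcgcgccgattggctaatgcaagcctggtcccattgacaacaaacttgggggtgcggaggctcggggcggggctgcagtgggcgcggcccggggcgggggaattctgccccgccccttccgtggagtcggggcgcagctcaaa
The motif searched was TCACCCCA on both strands, in windows from 250 bases before to 50 bases after each start. It was found in 1 of the 13 tested cholesterol genes that had a window, which was Srebf2, and in 1.56% of the 32851 windows of all genes. Other forms of the element were not searched.

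Fatty acid synthesis had 14 tested genes of 21 listed, and 0 passed. Their median log2 difference was 0.12 against 0.06 for all genes, positive for 12 of 14, but it became −0.07 with median scaling, when the median of all genes was −0.12. Elovl6, which lengthens palmitate to stearate, had log2 levels of 10.22, 10.29 and 10.37 in high-fat embryos and 10.11, 10.03 and 10.18 in control embryos. Acly, which makes cytosolic acetyl-CoA from citrate, had 13.39, 13.50 and 13.40 in high-fat embryos and 13.33, 13.38 and 13.11 in control embryos. The groups did not overlap for these 2 of 14 genes, against 4.51% of all genes higher in high-fat embryos. The log2 differences were small, 0.18 ± 0.14 for Elovl6 and 0.16 ± 0.12 for Acly. Elovl1, which lengthens very long chains, gave 0.22 ± 0.15. Scd1 and Scd2, the desaturases, gave −0.19 ± 0.43 and 0.14 ± 0.16, and Srebf1, the regulator of fatty acid synthesis genes, 0.10 ± 0.13.

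Genes of fatty acid oxidation and PPAR targets had a median log2 difference of 0.03 over 22 tested genes, with 12 positive and 10 negative. Angptl4, a PPAR target that inhibits lipoprotein lipase, was the 1 gene of 22 without overlap, against 4.51% of all genes higher in high-fat embryos. Its log2 difference was 0.10 ± 0.14. Acads, an acyl-CoA dehydrogenase of short chains, gave 0.33 ± 0.18, and Acadm, that of medium chains, 0.18 ± 0.13. Ppargc1a, the coactivator PGC-1α, gave −0.37 ± 0.23, and 5 of 6 arrays detected it.

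Lipid uptake and lipoprotein genes had the second highest median of the 34 lists, 0.30 over 19 tested genes, of which 17 were positive, against 60.7% of all genes. The median was 0.47 for set A arrays and −0.23 for set B arrays, 0.07 without high-fat replicate 1 and 0.57 without high-fat replicate 3. Slc27a4, a fatty acid transport protein, had log2 levels of 6.68, 6.49 and 5.99 in high-fat embryos and 6.11, 6.01 and 5.60 in control embryos. High-fat replicate 3 lay within the control range for Slc27a4, and the log2 difference was 0.48 ± 0.20 (unadjusted p = 0.033). Slc27a1, another transporter of the family, gave 0.34 ± 0.18. Lrp2, the endocytic receptor megalin, had log2 levels of 10.40, 10.53 and 10.38 in high-fat embryos and 10.27, 10.19 and 10.23 in control embryos, and a log2 difference of 0.21 ± 0.18. Lpl, lipoprotein lipase, and Vldlr, a lipoprotein receptor, gave 0.09 ± 0.12 and 0.08 ± 0.19. The apolipoproteins gave the largest values of the list but were very uneven between embryos.

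Apoa1, the main protein of high-density lipoprotein, had log2 levels of 12.09, 11.10 and 8.09 in high-fat embryos and 7.76, 9.47 and 11.38 in control embryos. High-fat replicates 1 and 2 and control replicate 3 were high and the other embryos low, with overlap over nearly the whole range. The log2 difference was 0.89 ± 1.16, made of 3.83 in set A and −2.33 in set B. Apoa4, another apolipoprotein, had log2 levels of 9.15, 7.79 and 4.63 in high-fat embryos and 4.61, 5.58 and 7.24 in control embryos, with the same embryos high. Its log2 difference of 1.38 ± 1.14 was among the 2 above 2-fold, and high-fat replicate 3 and control replicate 1 were below detection, so that no difference within the sets is given for it. Apom, a carrier of sphingosine phosphate, gave 0.93 ± 0.80 and Apoc1 gave 0.77 ± 0.60.

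The list of yolk sac visceral endoderm markers followed the same embryos. Its 26 tested genes of 36 listed were positive without exception, with a median log2 difference of 0.37, but the median was 1.16 for set A arrays and −0.60 for set B arrays. It was 0.12 without high-fat replicate 1, 0.64 without high-fat replicate 3, 0.21 without control replicate 1 and 0.63 without control replicate 3. The mean of the list, relative to each gene's mean over the 6 embryos, was 0.99, 0.41 and −0.66 in high-fat replicates 1 to 3 and −0.75, −0.34 and 0.35 in control replicates 1 to 3. The groups overlapped, and 1 of the 26 genes, Lrp2, had groups free of overlap, against 4.51% of all genes higher in high-fat embryos. Amn, the endocytic partner amnionless, had log2 levels of 11.38, 10.44 and 7.81 in high-fat embryos and 8.00, 8.85 and 9.90 in control embryos. Amn, Apoa1 and Apom were detected in all 6 embryos, although the yolk sac had been removed, and Apoa4 was detected in 2 of 3 embryos of each group. Of the 19 tested lipid uptake genes, 7 were also on the yolk sac list. In whole embryos, more cells of a type and more RNA per cell cannot be told apart. The part of yolk sac endoderm in the lipoprotein values was not tested.

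**Figure D3:**
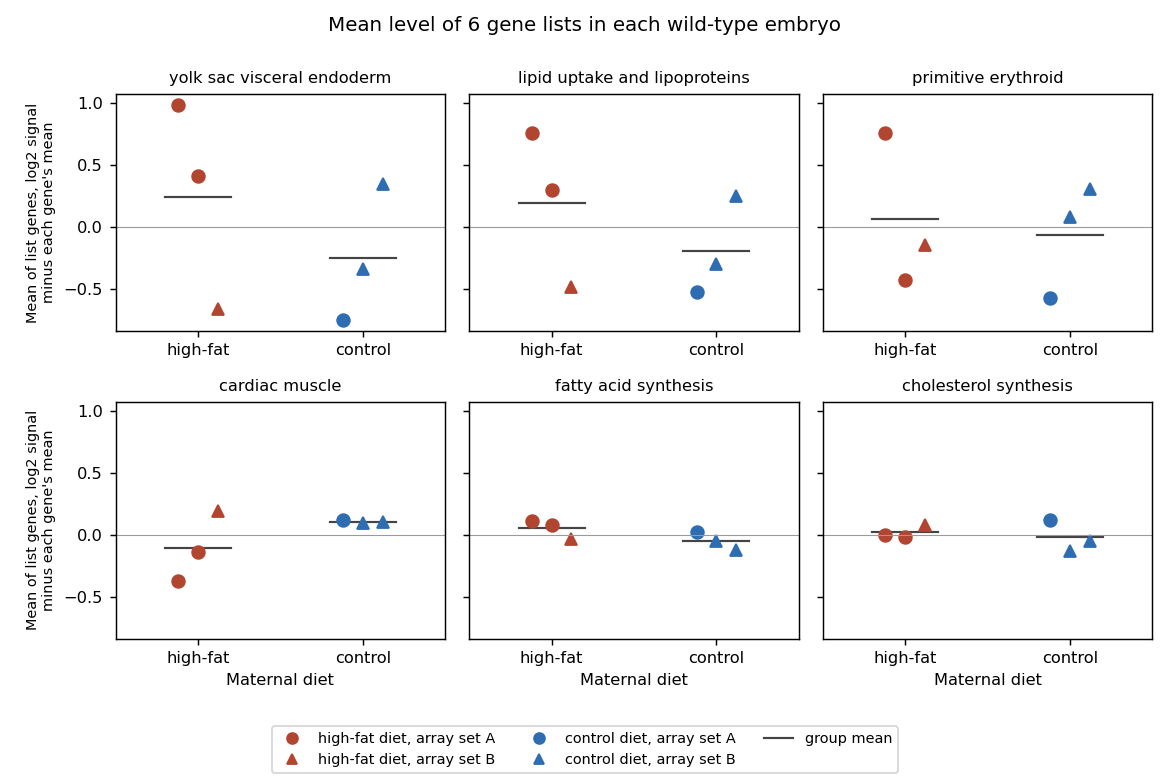
Mean of the tested genes of 6 lists in each wild-type embryo (log2 signal minus each gene's mean over the 6 embryos), high-fat embryos left and control embryos right, with circles for array set A, triangles for set B and bars for group means. The yolk sac and lipid uptake lists share a pattern in which high-fat replicates 1 and 2 and control replicate 3 are high, and the groups overlap in every panel.

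Insulin and IGF signalling had 16 tested genes with a median log2 difference of 0.04. Insr, the insulin receptor, was the 1 gene of 16 without overlap, against 4.51% of all genes higher in high-fat embryos. It had log2 levels of 9.98, 9.96 and 10.10 in high-fat embryos and 9.91, 9.66 and 9.57 in control embryos. Its log2 difference was 0.30 ± 0.13 (unadjusted p = 0.043), most of it in set B (0.48, against 0.06 in set A). Igf2, the fetal growth factor, gave 0.04 ± 0.12 and Igf1r, its receptor, −0.15 ± 0.17. Glucose transport and glycolysis had a median of 0.02 over 18 tested genes. The glucose transporters Slc2a1 and Slc2a3 gave 0.19 ± 0.12 and 0.06 ± 0.14, and Pgam1, phosphoglycerate mutase, gave −0.37 ± 0.16 (unadjusted p = 0.038).

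Hypoxia targets had a median of −0.04 over 19 tested genes, which became positive under 2 of the alternatives. Hif1a, the oxygen-regulated transcription factor subunit, had log2 levels of 6.56, 6.74 and 7.03 in high-fat embryos and 6.99, 7.21 and 7.61 in control embryos. Only high-fat replicate 3 reached the control range, and the log2 difference was −0.50 ± 0.18 (unadjusted p = 0.020), with −0.35 in set A and −0.38 in set B. Edn1, the peptide endothelin 1, gave −0.50 ± 0.31 with no overlap. Car12, a carbonic anhydrase, also had no overlap and gave 0.30 ± 0.15, so that the 2 genes without overlap lay on opposite sides.

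Mitochondrial respiratory chain genes were spread evenly, with 33 positive and 26 negative of 59 tested and a median of 0.04. Atp5pb, a stator subunit of ATP synthase, had log2 levels of 10.61, 10.64 and 10.83 in high-fat embryos and 11.02, 10.95 and 11.31 in control embryos (−0.40 ± 0.16, unadjusted p = 0.034). Among oxidative stress genes 13 of 20 were negative, with a median of −0.02. Prdx3, the mitochondrial peroxiredoxin, had log2 levels of 9.04, 8.91 and 9.13 in high-fat embryos and 9.36, 9.29 and 9.82 in control embryos. The groups did not overlap for Prdx3, and the log2 difference was −0.46 ± 0.16 (unadjusted p = 0.015), with −0.38 in set A and −0.43 in set B. Cat, catalase, was among the 8 genes over 2-fold lower, but its groups overlapped. Hmox1 and Gpx1, further antioxidant enzymes, gave 0.09 ± 0.17 and −0.02 ± 0.14.

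The unfolded protein response list had a median of −0.12 over 28 tested genes, which was −0.08 for set A arrays and 0.02 for set B arrays. It was −0.06 without high-fat replicate 1, −0.04 without high-fat replicate 3 and −0.02 without control replicate 2. Heat shock proteins had a median of −0.01 over 19, and 3 of them, the chaperones or cochaperones Hspb1 (−0.22), Cryab (−0.12) and Ahsa1 (−0.29), were free of overlap and lower in high-fat embryos, against 2.79% of all genes. Chac1, a glutathione-degrading enzyme induced by ATF4, gave 0.41 ± 0.16 (unadjusted p = 0.030). It was the 1 unfolded protein response gene of 28 without overlap, against 4.51% of all genes higher in high-fat embryos. Atf4 itself gave −0.58 ± 0.52 and Hspa5, the endoplasmic reticulum chaperone BiP, 0.29 ± 0.35. Of the p53 and apoptosis list, Bak1 alone was free of overlap among 24 tested genes, against 4.51% of all genes higher in high-fat embryos. Cdkn1a, the cell cycle inhibitor p21, gave −0.01 ± 0.14. Inflammation and interferon genes had a median of 0.11 over 18 tested genes, with 13 positive. Isg15 and Bst2, both induced by interferon, gave 0.42 ± 0.16 and 0.49 ± 0.22 (unadjusted p = 0.022 and 0.045).

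Cell cycle genes had a median of −0.01 over 33 tested genes, of which 2 had an unadjusted p under 0.05 and were lower, against 1.34% of all genes. Ccne2, cyclin E2, which drives entry into S phase, had log2 levels of 6.74, 7.04 and 7.44 in high-fat embryos and 7.42, 8.16 and 8.14 in control embryos. Its log2 difference was −0.83 ± 0.27 (unadjusted p = 0.009). Cdk1, the kinase of mitotic entry, had 10.81, 10.67 and 11.14 in high-fat embryos and 11.14, 11.21 and 12.03 in control embryos, a log2 difference of −0.59 ± 0.23. For both genes high-fat replicate 3 lay next to control replicate 1.

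The embryo's own organ systems were described by further lists. Cardiac muscle genes had the lowest median of the lists with at least 6 tested genes, −0.17 over 26, of which 19 were negative and 0 passed. Arrays of set A gave −0.33 and arrays of set B 0.10, and the median was −0.08 without high-fat replicate 1 and −0.31 without high-fat replicate 3. Nppa, the atrial natriuretic peptide, had log2 levels of 5.10, 6.09 and 7.40 in high-fat embryos and 7.30, 7.96 and 7.16 in control embryos. High-fat replicate 3 lay within the control range, and the log2 difference was −1.27 ± 0.65 (unadjusted p = 0.073). High-fat replicate 1, at 5.10, lay below the dimmest detected probe of its array (5.34). Myl7, the atrial myosin light chain, had 9.56, 9.93 and 11.05 in high-fat embryos and 10.44, 10.66 and 11.40 in control embryos, a log2 difference of −0.66 ± 0.35. Myl2, the ventricular light chain, Actc1, cardiac actin, and Acta1, skeletal actin, had groups free of overlap, 3 of 26 against 2.79% of all genes. Their log2 differences were −0.66 ± 0.48, −0.22 ± 0.31 and −0.24 ± 0.40. The mean of the cardiac list was −0.37, −0.14 and 0.19 in high-fat replicates 1 to 3 and 0.12, 0.10 and 0.10 in control replicates 1 to 3. Control embryos were close together, while high-fat replicate 1 was the lowest of all and high-fat replicate 3 the highest. Regulators of the heart fields had a median of 0.04 over 24 tested genes. Hand1 and Tbx3, transcription factors of heart and extraembryonic mesoderm, were free of overlap at 0.46 ± 0.23 and 0.30 ± 0.15, 2 of 24 against 4.51% of all genes. Nkx2-5 gave 0.04 ± 0.19.

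Genes of left-right signalling, a process in which Cited2 takes part, had 15 tested members and a median of 0.06. Lefty2, an inhibitor of Nodal expressed on the left side, had the largest difference of all genes. Its log2 level was 8.996, 7.73 and 5.45 in high-fat embryos and 6.91, 4.59 and 5.28 in control embryos. The spread within each group was wide, high-fat replicate 3 lay below control replicate 1, and the log2 difference was 1.80 ± 0.94 (unadjusted p = 0.080). Control replicate 2, at 4.59, lay below the dimmest detected probe of its array (5.16), so the difference rests in part on a value below detection. Foxh1, the transcription factor that carries Nodal signals, had 8.21, 7.95 and 7.12 in high-fat embryos and 7.77, 6.86 and 6.57 in control embryos (0.70 ± 0.35). Nodal gave 0.65 ± 0.74, and high-fat replicate 1 at 7.50 stood above the other embryos, which lay between 5.23 and 6.12. Cited2 had log2 levels of 10.94, 11.19 and 11.64 in high-fat embryos and 11.32, 11.38 and 11.90 in control embryos at its brightest probe (−0.27 ± 0.50). Its other probes gave 0.39 ± 0.22 and 0.30 ± 0.23, so no direction was common to the 3 probes. Lefty1 had no tested probe.

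Of 28 tested neural tube and brain genes 16 were negative, and 3 had an unadjusted p under 0.05, each lower in high-fat embryos, against 1.34% of all genes. Dbx1, a homeobox gene of the intermediate neural tube, was not well above background on any high-fat array and was detected on all 3 control arrays. Its log2 levels were 5.13, 5.17 and 5.03 in high-fat embryos and 5.98, 6.27 and 5.72 in control embryos. Dbx1 thus met the detection filter through the control arrays alone, which favours a lower value in high-fat embryos. With the dimmest detected probes in place of lower high-fat values, its estimate was at least 1.65-fold lower in high-fat embryos (adjusted p = 0.820). That bound leaves out the spread between embryos. En2, which helps set up the boundary between midbrain and hindbrain, had 6.13, 6.48 and 7.25 in high-fat embryos and 7.03, 8.00 and 7.24 in control embryos (−0.81 ± 0.29). Wnt8b, a forebrain signal, had 6.76, 6.92 and 7.08 in high-fat embryos and 7.48, 7.78 and 7.18 in control embryos (−0.56 ± 0.25). En2 overlapped between the groups, while Dbx1, Wnt8b and the proneural factor Neurog2 (−0.45 ± 0.30) did not, 3 of 28 against 2.79% of all genes. Both counts of 3 include Dbx1, which was tested only because the control arrays detected it. The median of the list was −0.05, and it changed sign under 3 of the alternatives.

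Neural crest genes had a median of −0.07 over 19 tested, with Tfap2b (−0.63 ± 0.59) and Tfap2c (0.23 ± 0.13), both AP-2 factors, free of overlap in opposite directions. These were 1 lower and 1 higher of 19, against 2.79% and 4.51% of all genes. Somite and paraxial mesoderm genes had a median of −0.06 over 14 tested, and tailbud and axial progenitor genes one of −0.02 over 23. Tbx6, which specifies paraxial mesoderm, gave −0.03 ± 0.22, and Wnt3a, a tailbud signal, gave 0.36 ± 0.21. Hox genes had a median of −0.04 over 23 tested, which was −0.09 without high-fat replicate 1, −0.01 without high-fat replicate 2 and −0.08 without control replicate 2. Hoxb4 was the lowest at −0.87 ± 0.61, with log2 levels of 6.93, 7.71 and 9.18 in high-fat embryos and 7.79, 8.91 and 9.74 in control embryos.

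In the retinoic acid pathway, which patterns the trunk and hindbrain, 2 of 11 tested genes had an unadjusted p under 0.05, both higher in high-fat embryos, against 2.47% of all genes. Stra6, the receptor for retinol-binding protein, had log2 levels of 8.11, 8.34 and 7.72 in high-fat embryos and 7.83, 7.51 and 7.41 in control embryos (0.47 ± 0.19). Rxra, the partner receptor of retinoic acid and PPAR receptors, was detected on 3 of 3 high-fat arrays and not well above background on any control array. Its log2 levels were 5.74, 5.71 and 5.15 in high-fat embryos and 5.01, 4.80 and 5.06 in control embryos. Rxra met the detection filter through the high-fat arrays alone, which favours a higher value there, and the count of 2 of 11 includes it. With the dimmest detected probes in place of lower control values, its estimate was at least 1.31-fold higher in high-fat embryos (adjusted p = 0.820). That bound leaves out the spread between embryos. Rarg, another retinoic acid receptor, gave 0.26 ± 0.14, and Aldh1a2, which makes retinoic acid, 0.07 ± 0.17.

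The DNA methylation and Polycomb list had a median of 0.00 over 21 tested genes and held 3 with an unadjusted p under 0.05, 1 higher and 2 lower in high-fat embryos, against 2.47% and 1.34% of all genes. Ezh2, the methyltransferase of Polycomb repressive complex 2, had log2 levels of 10.76, 11.25 and 11.59 in high-fat embryos and 11.54, 11.91 and 11.89 in control embryos (−0.58 ± 0.23). Cbx7, a chromodomain subunit of complex 1, had 6.91, 6.45 and 6.22 in high-fat embryos and 6.01, 5.85 and 5.98 in control embryos (0.58 ± 0.26). Bmi1 and Ezh2 were thus lower and Cbx7 higher in high-fat embryos, without passing the test. Dnmt1 and Dnmt3b, the DNA methyltransferases, gave −0.16 ± 0.37 and 0.23 ± 0.16. Imprinted genes had a median of 0.05 over 24 tested, and none of them was free of overlap, against 4.51% higher and 2.79% lower of all genes. Gnas gave −0.54 ± 0.27, and Phlda2, which restrains placental growth, gave 0.39 ± 0.22.

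Blood and the tissues around the embryo also varied. Primitive erythroid genes had a list mean of 0.76, −0.43 and −0.15 in high-fat replicates 1 to 3 and −0.57, 0.08 and 0.30 in control replicates 1 to 3. Sptb, the beta spectrin of red cells, was the 1 gene of 16 tested in that list free of overlap (0.49 ± 0.23), against 4.51% of all genes. Endothelial genes had a median of 0.03 over 27 tested, and gut endoderm genes one of 0.06 over 21. Foxa3, a gut endoderm factor, had log2 levels of 8.48, 8.32 and 7.87 in high-fat embryos and 7.87, 7.62 and 7.41 in control embryos (0.59 ± 0.25, unadjusted p = 0.036). Trophoblast genes had a median of 0.23 over 9 tested of 26 listed, and 0.14 without high-fat replicate 1. Their list mean was 0.48, −0.06 and −0.06 in high-fat replicates 1 to 3 and −0.11, −0.21 and −0.04 in control replicates 1 to 3, so that high-fat replicate 1 alone stood above the others. The allantois and mesothelium list, 13 tested of 17, had a median of 0.22 and 4 genes free of overlap and higher in high-fat embryos (Pitx1, Hoxc10, Hand1 and Ahnak), against 4.51% of all genes. That median was −0.01 without control replicate 2, whose list mean of −0.23 was the lowest of the wild-type embryos. With the array set as a covariate it was 0.09. Decidual and maternal tissue genes had 6 tested of 25 listed, with a median of −0.15. The medians of parietal endoderm and of the sex-linked genes were 0.11 over 13 and −0.19 over 3 tested genes. Among the Y-linked genes, Eif2s3y had log2 levels of 5.39, 4.34 and 6.45 in high-fat embryos and 4.54, 6.65 and 7.10 in control embryos, lowest in the 2 embryos that detected Xist. Kdm5d was lowest in the same 2 embryos (−0.19 ± 0.40), while the Uty probe did not separate them (0.12 ± 0.17).

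**Figure D4:**
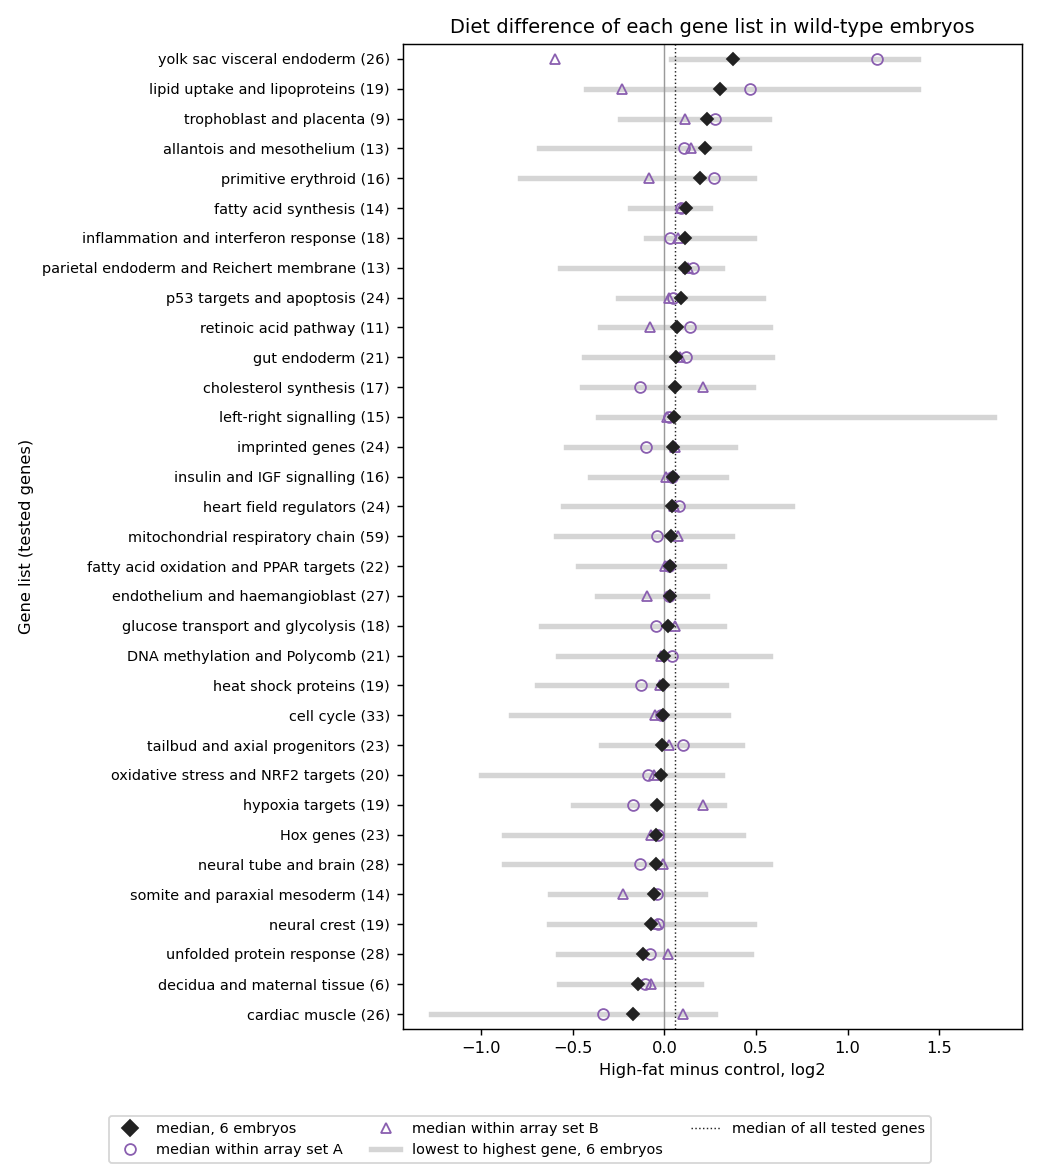
Median high-fat minus control difference (log2) of the 33 gene lists with at least 6 tested genes: black diamonds over the 6 wild-type embryos, open circles within array set A and open triangles within set B, with grey bars from the lowest to the highest gene and a dotted line at the median of all genes (0.06). The yolk sac list ranges from 1.16 in set A to −0.60 in set B, the widest distance of any list shown.

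The lists' signs depended on scale as well. The median over all genes was 0.06 and 60.7% of genes were positive after quantile normalization, against 0.02 and 53.5% in the authors' deposited log2 table. With median scaling in place of quantile normalization the median over all genes shifted by −0.17 to −0.12. Relative to the median of all genes, the yolk sac list stood at 0.32 and with median scaling at 0.33, the lipid uptake list at 0.25 and 0.23, the cardiac list at −0.23 and −0.17, and fatty acid synthesis at 0.06 and 0.04. The 24 named genes stayed on the same side of that median.

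The same contrast in Cited2 -/- embryos, again 3 against 3, rested on other embryos, but these may be related to the wild-type embryos. Each number in a wild-type title recurs in the title of 1 knockout embryo of the same diet, and the labels do not say whether it marks a litter. It called 0 probes (0%, smallest adjusted p = 0.686; 1115 with an unadjusted p under 0.05). The test of the difference between genotypes also called 0 (0%, smallest adjusted p = 1.00; 209 unadjusted). Array sets were divided between the diets in the same way in both genotypes, 2 arrays of set A and 1 of set B on the high-fat diet and 1 and 2 on the control diet. Over genes the diet differences of the 2 genotypes correlated at 0.683, and at 0.509 with the set as a covariate. Of the 12 named genes higher in wild-type embryos on the high-fat diet, 11 were positive in knockout embryos as well, against 76.4% of all genes that were positive in wild-type embryos. Of the 12 lower, 9 were negative, against 72.4%. The knockout groups did not overlap for 8 of the 12 higher genes, against 10.4% of all genes, and for 5 of the 12 lower genes, against 4.31%. The part of the array sets and of the shared title numbers in this likeness was not tested. The p that picked the named genes takes its spread from knockout arrays too, so genes with little scatter among knockout embryos were favoured. The shares of all genes carry no such choice.

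The diet difference of Zfp507 was −0.97 in wild-type embryos and −1.04 in knockout embryos, that of Igsf21 0.78 in wild-type and 0.64 in knockout embryos, and that of Adgrb2 0.57 in wild-type and 0.56 in knockout embryos. Bmi1 gave −0.47 in wild-type and 0.12 in knockout embryos, and Arhgap42 −0.46 in wild-type and 0.15 in knockout embryos, but these contrasts between genotypes had adjusted p-values of 1.00 (limma). Of the wild-type high-fat arrays, 1 of 3 detected Arhgap42. The genes with the smallest interaction p were Osr2, a factor of limb and palate mesenchyme, Mdga2, a synaptic membrane protein, and Slc2a6, a sugar transporter. Osr2 differed by −0.03 ± 0.15 in wild-type and by 0.76 ± 0.15 in knockout embryos. Mdga2 differed by 0.06 ± 0.14 in wild-type and −0.62 ± 0.14 in knockout embryos. Slc2a6 differed by 0.33 ± 0.18 in wild-type and −0.57 ± 0.18 in knockout embryos. The Osr2 mean of knockout control embryos, 4.82, lay below the dimmest detected probes of those arrays (5.07 to 5.22). The Mdga2 and Slc2a6 means of knockout high-fat embryos, 4.99 and 4.83, also lay below theirs (5.13 to 5.34). These knockout differences thus rest in part on values below detection, and the detection filter used wild-type arrays only. The cardiac list had a median of −0.17 in wild-type embryos and −0.72 in knockout embryos. Of its 26 genes, 24 were more negative in knockout embryos, against 55.3% of all genes, and these genes share all their arrays. The list mean was −0.45, −0.92 and −1.27 in knockout high-fat embryos and 0.33, 0.14 and −0.70 in knockout control embryos. The knockout groups thus overlapped and spread widely. An unadjusted interaction p under 0.05 was found for 2 of the 26, against 0.875% of all genes, and none passed after adjustment.

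**Figure D5:**
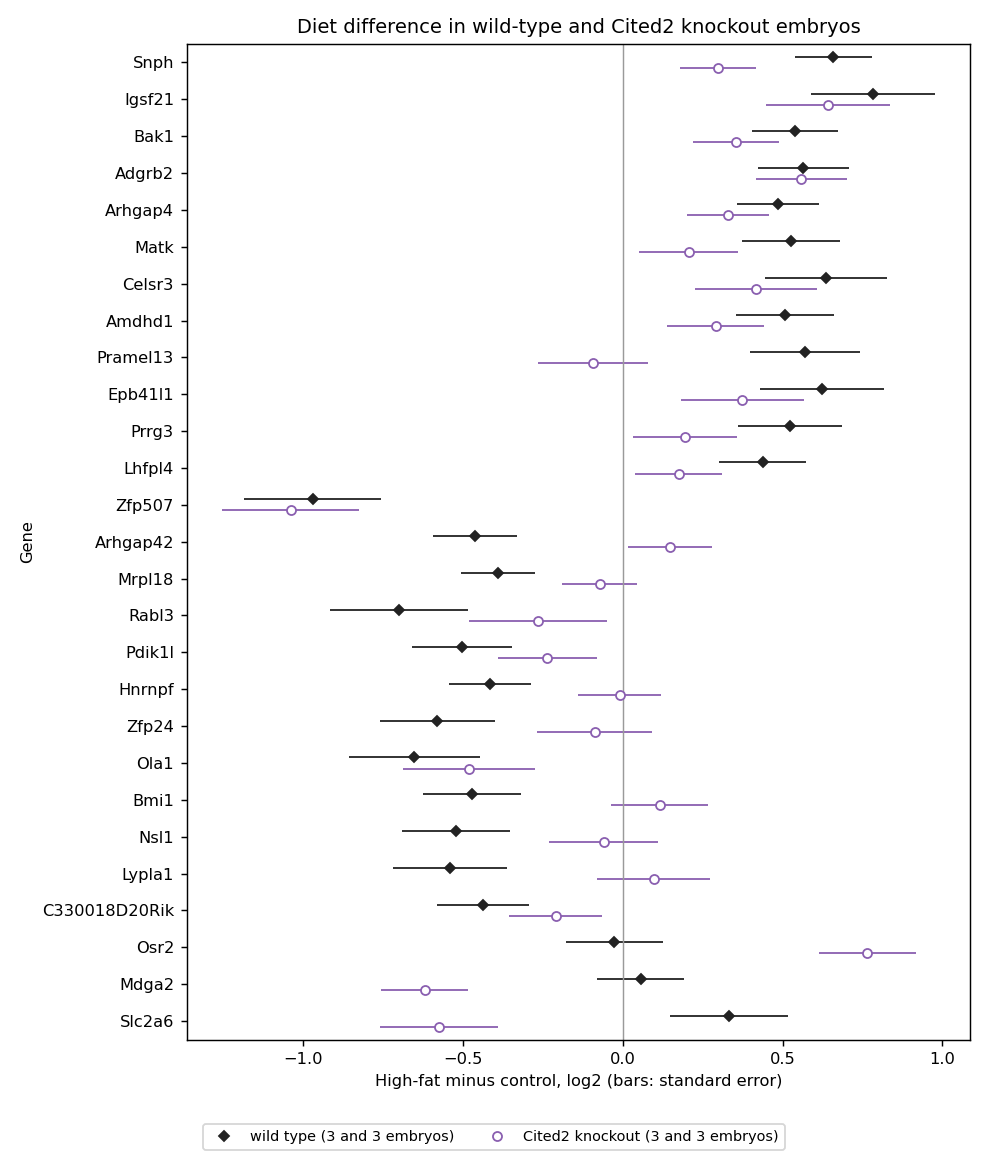
High-fat minus control difference (log2, bars show the standard error) of the 24 named genes and of the 3 genes with the smallest interaction p, in wild-type embryos (black diamonds, upper) and Cited2 knockout embryos (open circles, lower). Zfp507 and Igsf21 lie close together in both genotypes, while Bmi1, Arhgap42 and Lypla1 are negative in wild-type and slightly positive in knockout embryos.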

How the data were processed

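Transcripts were measured on 12 single-colour Illumina arrays, of which 6 carried wild-type embryos. The deposited signal is a bead intensity on a linear scale, and the submitters' processing notes name BeadStudio 3.2.6 as the authors' tool. Beside each signal stands a deposited detection p-value. The authors also deposited a table of log2 values. Ranks in this table were those of the same array's signals (correlation 1, at most 0.949 with other arrays), so scale and direction were known and the normalization was not stated. Its column medians were 4.99, 5.00 and 5.00 for high-fat and 4.97, 5.00 and 5.01 for control wild-type embryos.

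Background correction and quantile normalization used neqc of limma 3.58.1 in R 4.3.3 (offset 16), after which all 12 arrays entered 1 model with 4 group means. The contrast was wild-type high-fat minus wild-type control, tested with lmFit and eBayes, and p-values were adjusted over 18199 probes with a threshold of 0.05. The model was tested on simulated data. Gene symbols came from the platform table, in which 34885 probes had 1 symbol, 18 had several and 10378 had none, and RefSeq (GRCm38.p6) matched 34807 of the first. Errors after ± are the model's standard errors. The number of arrays limits the precision, and probes of different genes were not set against each other in level.

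The labels name the samples as replicates without saying whether embryos shared a litter, so p-values measure the spread between these embryos, which may be technical. Each title number is shared by 1 wild-type and 1 knockout embryo of the same diet, with no meaning stated, and a fit with it as a random block was run. Replicate numbers come from the sample descriptions. Deviations from the group means of same-numbered high-fat and control embryos correlated over probes at 0.557, 0.124 and 0.559, so the fit with the number as a block was run too. Of differently numbered pairs, high-fat 2 with control 1 gave 0.346 and high-fat 3 with control 2 gave 0.226. The others ran from −0.673 to −0.346. Same-numbered pairs 1 and 3 each lay within 1 array set, and pair 2 was divided between the sets. Genes were named by rule: 12 a direction with the smallest p among those without overlap, 3 of smallest p and the leading members from each of 34 lists, Cited2, Nodal, Lefty1 and sex-linked genes, and the 3 with the smallest interaction p. The comparison, the lists and the rule were chosen with earlier results of these data known. Other genes in the text, such as those over 2-fold and all those counted as free of overlap, were named after their values were seen.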

Additional observations from a re-analysis of the deposited data

How the results depend on the processing

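The number of wild-type probes that passed was recomputed under 22 alternatives, and 20 of them gave 0. The exceptions were array weights, with 2726 probes (smallest adjusted p = 0.0249), and array weights on the 6 wild-type arrays alone, with 2755 (1262 higher and 1493 lower). Array weights also called 1215.0 probes in knockout embryos, 626 higher and 589 lower, and 0 for the interaction. Together with the array set as a covariate, weights gave 0 (smallest adjusted p = 0.148). The runs of the weights with the array set and on the 6 wild-type arrays alone stopped short of convergence. Leaving out each embryo in turn gave 0 to 0 calls, but the number with an unadjusted p under 0.05 ran from 260 without control replicate 3 to 2176 without high-fat replicate 3, and was 2020 without control replicate 1. Those last 2 embryos are the ones whose array set differs from that of most of their group. The replicate block on the 6 wild-type arrays gave 0 calls, a smallest adjusted p of 0.245 and 2924 probes with an unadjusted p under 0.05, against 508 in the same arrays with no block, and it changed no call. The title number as a random block gave 0 calls, a smallest adjusted p of 0.816 and 761 probes with an unadjusted p under 0.05. Replacing the filter by none, or asking for detection on all 6 arrays, gave 0 calls too. All 523 values of the 24 named genes kept their sign, which their choice favours, and 42 passed, all of them under array weights with either 12 or 6 arrays. Of 782 list medians 85 moved by more than the spread between embryos, and 6 of the 34 lists kept their sign under every alternative (yolk sac, lipid uptake, trophoblast, cardiac muscle, Hox and unfolded protein response). The covariates for Xist and those combined with the array set, and the weights combined with the set or restricted to 6 arrays, were chosen after seeing the data. The cause of the gain under array weights was not tested.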

Other observations

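The globin genes, named here after their values were seen, divided the 6 wild-type embryos along lines that diet did not follow. Hbb-bh1, an embryonic beta-like globin of primitive red cells, had log2 levels of 12.86, 9.08 and 10.46 in high-fat replicates 1 to 3 and 7.53, 11.28 and 12.29 in control replicates 1 to 3. Hba-x, the embryonic alpha-like globin, had 11.01, 7.40 and 8.52 in high-fat embryos and 5.96, 9.81 and 10.42 in control embryos. Both were lowest in control replicate 1 and, among high-fat embryos, in replicate 2, and these are the 2 embryos that detected Xist. Hbb-bs, an adult-type beta globin, had another order, with 9.64, 6.91 and 10.40 in high-fat embryos and 9.81, 7.76 and 7.78 in control embryos. Hbb-bt had 9.24, 6.93 and 10.29 in high-fat embryos and 9.59, 7.44 and 7.47 in control embryos. Hbb-bs and Hbb-bt are near-identical copies, so their probes may share signal. The log2 differences were 0.44 ± 1.38 for Hbb-bh1 and 0.53 ± 1.37 for Hbb-bs, with standard errors several times the median of all probes. Within array sets A and B they were 3.44 and −1.32 for Hbb-bh1, and −1.53 and 2.63 for Hbb-bs.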
